A study of Saccharomyces cerevisiae with 12 samples.

Results

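The acetyl-carnitine shuttle of *Saccharomyces cerevisiae* was followed through 5 genes, CAT2 (YML042W), YAT1 (YAR035W), YAT2 (YER024W), CRC1 (YOR100C) and AGP2 (YBR132C). They were taken by systematic name, by a rule with no expression threshold, from 6894 features listed in either of 2 deposited tables. RNA had been sequenced at 36 h from 4 groups of 3 libraries. Strain YJ-04, with a low level of S-adenosylmethionine (SAM), and strain YJ-06, with a high level, both carried an introduced module for making bikaverin, a fungal polyketide pigment whose synthesis uses SAM as a methyl donor. Strain YJ-08 (low SAM) and strain YJ-09 (high SAM) both carried pRS416, a low-copy yeast plasmid. The study's title names sulfur assimilation and SAM-dependent methylation, and the question taken here was how the shuttle genes differed between high and low SAM within each pair of strains. Neither the genetic changes that set the SAM level nor the parent strains are stated in the labels, so each pair compares whole strains.

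Acetyl-CoA cannot cross the membranes of peroxisomes and mitochondria. In the carnitine shuttle a carnitine acetyltransferase moves the acetyl group from CoA to carnitine, acetyl-carnitine crosses the membrane, and an acetyltransferase on the other side returns the acetyl group to CoA for the tricarboxylic acid cycle. Budding yeast does not make carnitine and takes it up from the medium. Peroxisomal citrate synthase, the glyoxylate cycle and the export of organic acids form a second way out of the peroxisome, and the shuttle becomes essential on fatty acids when that citrate synthase is missing.

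CAT2 encodes the carnitine acetyltransferase of peroxisomes and mitochondria and lies on the plus strand of R64 at chrXIII:192788-194800. YAT1 encodes an acetyltransferase at the outer mitochondrial membrane and lies on the plus strand at chrI:190193-192256. YAT2 encodes another acetyltransferase, reported in the cytosol, and lies on the plus strand at chrV:202192-204963. CRC1 encodes the carrier that exchanges acetyl-carnitine for carnitine across the inner mitochondrial membrane and lies on the minus strand at chrXV:513295-514278. AGP2 encodes the plasma membrane protein needed for carnitine uptake, a relative of the amino acid permeases, and lies on the minus strand at chrII:499652-501442. None of the 5 genes overlapped another annotated gene, and none had a near copy elsewhere in the genome (at least 90% identity over at least 50% of its length).

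The promoters are shown because the acetyltransferase genes are known targets of carbon-source regulators. The 300 bases before the annotated gene start, from the RefSeq R64 sequence, were searched on both strands for the carbon source response element bound by Cat8 and Sip4 (CC, then 6 bases, then CCG), for the oleate response element bound by Oaf1 and Pip2 (CGGNNNTNA, then 8 to 12 bases, then CCG), and for the Adr1 core (TTGGAG or TTGGGG). Capitals mark every match, and overlapping matches run together. The YAT1 window is chrI:189893-190192 on the plus strand, the YAT2 window is chrV:201892-202191 on the plus strand and the CAT2 window is chrXIII:192488-192787 on the plus strand.
YAT1: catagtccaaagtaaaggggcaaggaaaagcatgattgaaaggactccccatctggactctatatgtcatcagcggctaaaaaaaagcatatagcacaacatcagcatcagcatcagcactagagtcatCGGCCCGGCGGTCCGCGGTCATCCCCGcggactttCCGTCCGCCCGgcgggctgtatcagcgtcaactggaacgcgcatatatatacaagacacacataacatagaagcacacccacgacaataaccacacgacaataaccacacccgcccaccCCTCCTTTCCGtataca
YAT2: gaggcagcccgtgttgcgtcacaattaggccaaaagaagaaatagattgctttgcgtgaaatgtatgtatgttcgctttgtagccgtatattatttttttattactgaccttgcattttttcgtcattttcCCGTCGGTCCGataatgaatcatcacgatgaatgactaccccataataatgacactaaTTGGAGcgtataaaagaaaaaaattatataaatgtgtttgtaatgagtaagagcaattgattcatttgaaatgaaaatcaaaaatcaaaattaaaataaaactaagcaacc
CAT2: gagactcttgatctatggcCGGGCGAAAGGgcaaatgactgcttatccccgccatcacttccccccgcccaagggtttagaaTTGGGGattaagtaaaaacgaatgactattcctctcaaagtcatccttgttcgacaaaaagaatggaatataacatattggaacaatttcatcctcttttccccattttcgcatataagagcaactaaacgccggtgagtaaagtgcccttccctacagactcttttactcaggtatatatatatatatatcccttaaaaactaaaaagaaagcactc

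All 5 windows held at least 1 match to the carbon source response element, a pattern found in 11.1% of 6001 protein-coding promoters of the same length. YAT1 held 4 such matches, at 171 to 161, 167 to 157, 136 to 126 and 17 to 7 bases before the start. The first of these overlapped the second, and both overlapped the only match among the 5 genes to the oleate response element, at 166 to 145 bases, a pattern present in 1.12% of promoters. CRC1 held the match CCAGTCATCCG at 258 to 248 bases, and AGP2 held the match CGGGGTGTCGG, on the opposite strand, at 278 to 268 bases. The Adr1 core occurred in CAT2 (218 to 213 bases) and YAT2 (111 to 106 bases), against 15.2% of all promoters. The Cbf1 site CACGTG and the Met31 and Met32 site AAACTGTGG, which are tied to sulfur assimilation, occurred in 3.57% and 0.533% of promoters and in none of the 5 windows. Each match is a run of letters and does not show that a factor binds there.

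Values were the authors' FPKM, read fragments scaled to gene length in kilobases and to library size in M reads. The scaling totals recovered from the tables were 15.4 to 17.7 M reads in the bikaverin libraries and 40.7 to 45.1 M in the pRS416 libraries, and each shuttle gene had 841 to 19961 reads in the first table and 2041 to 56001 in the second. All 5 genes passed the filter of a mean of at least 1 FPKM in both tables. No label says that replicates came from separate cultures, so a p-value here reflects only how far these libraries differed, possibly for technical reasons. In bulk RNA, fewer cells of a type and less RNA per cell cannot be told apart. Within the bikaverin strains, low-SAM replicate 3 and high-SAM replicate 1 had the shuttle genes shifted from their group mates, as described with the results. The 2 tables were made separately, so levels set across them are not tested. The summed FPKM of 16 haploid-cell and mating genes, a-cell genes such as STE2 and MFA1 among them, differed with SAM in both pairs. With the bikaverin module it was 1114 to 1246 at low SAM and 1776 to 2799 at high SAM. With pRS416 it was 1858 to 1959 and 249.0 to 262.3. MF(ALPHA)1 alone was at 378 ± 56.1 and 1221 ± 435 FPKM with the module and at 707 ± 29.7 and 3.68 ± 0.583 FPKM with pRS416. Of the 16 genes, 8 were called higher and 1 lower with the module, and 1 higher and 14 lower with pRS416. No gene of that list was at 0 in all libraries of a group. The a1 gene HMRA1, looked at after its values were seen, was listed at 81.7 to 137.7 FPKM in the pRS416 high-SAM strain and at no more than 1.37 FPKM in the other 9 libraries. In the pRS416 pair the differences of HMRA1 and the mating genes go with the SAM level. They cannot be told apart from SAM in that pair or in the difference between pairs. The part of mating type in the results below was not tested.

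The bikaverin strains had less RNA of every shuttle gene at high SAM. CAT2 was at 268.0, 265.6 and 199.8 FPKM at low SAM and at 109.3, 89.0 and 104.8 FPKM at high SAM. The groups did not overlap, and the mean fell from 244.5 ± 38.7 to 101.1 ± 10.7 FPKM (SD, n = 3), a log2 fold change of -1.26 with SE 0.138 (limma, adjusted p = 0.000223).

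YAT1 was at 393.5, 384.6 and 246.1 FPKM at low SAM and at 173.0, 83.5 and 77.2 FPKM at high SAM in the same strains. YAT2 was at 409.7, 429.1 and 269.6 FPKM at low SAM and at 204.5, 83.9 and 76.3 FPKM at high SAM. For both acetyltransferases the third low-SAM library was the lowest of its group, the first high-SAM library was the highest of its group, and the groups still did not overlap. YAT1 fell from 341.4 ± 82.7 to 111.2 ± 53.6 FPKM (-1.68 on the log2 scale, SE 0.318, adjusted p = 0.00298), and YAT2 fell from 369.4 ± 87.0 to 121.6 ± 72.0 FPKM (-1.72, SE 0.367, adjusted p = 0.00531). The carrier gene CRC1 was at 147.3, 147.5 and 87.5 FPKM at low SAM and at 96.7, 55.6 and 55.3 FPKM at high SAM. Here the lowest low-SAM library lay under the highest high-SAM library. CRC1 fell from 127.4 ± 34.6 to 69.2 ± 23.8 FPKM (-0.88 on the log2 scale, SE 0.271, adjusted p = 0.0253), a call that was lost when any of 4 libraries was left out (-0.76 to -0.75, adjusted p from 0.075 to 0.0877): low-SAM replicate 1 or 2, or high-SAM replicate 2 or 3.

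AGP2, the uptake gene, was the lowest of the set, at 56.4, 57.3 and 51.5 FPKM at low SAM and at 45.5, 37.3 and 39.8 FPKM at high SAM. Its groups were narrow and did not overlap. Its mean fell from 55.1 ± 3.10 to 40.9 ± 4.19 FPKM (-0.42 on the log2 scale, SE 0.0970, adjusted p = 0.00721). All 5 shuttle genes were thus called lower. Of the 6459 features tested in this pair, 27.9% were called lower and 28.8% higher, 56.7% in either direction. Their median log2 fold change was -1.26 beside 0.01 over all tested features.

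**Figure D1:**
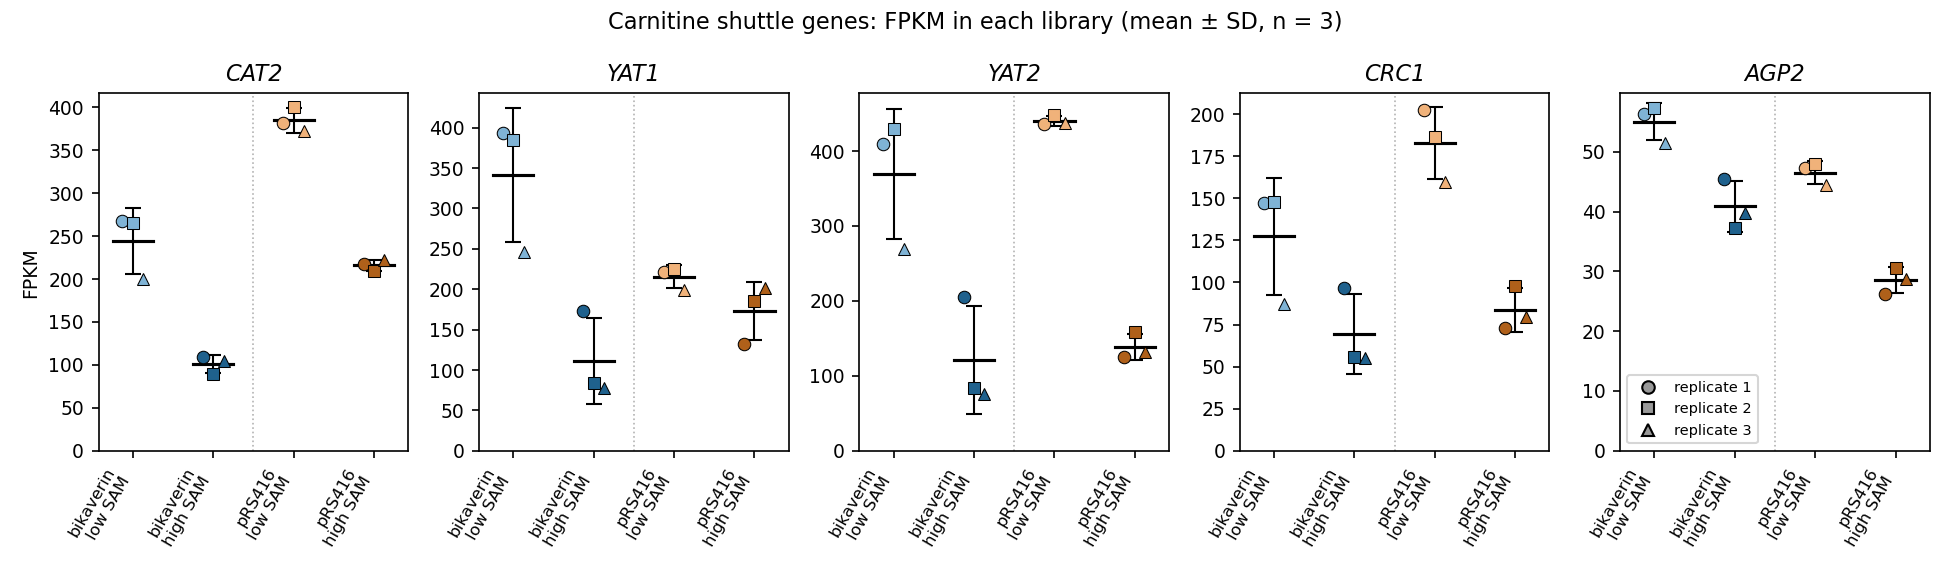
FPKM of the 5 shuttle genes in each of the 12 libraries (points, shaped by replicate), with the mean and SD of each group of 3. CRC1 in the bikaverin strains and YAT1 in the pRS416 strains are the pairs of groups that overlap.

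In the bikaverin strains the shuttle genes also varied together within groups. On the log2 scale, low-SAM replicate 3 lay under its group mean by 0.28 for CAT2, 0.44 for YAT1, 0.42 for YAT2 and 0.50 for CRC1. High-SAM replicate 1 lay above its group mean by 0.12 for CAT2, 0.73 for YAT1, 0.90 for YAT2 and 0.53 for CRC1. AGP2 deviated by -0.09 and 0.16 in these 2 libraries. There the median of 16 peroxisomal beta-oxidation genes deviated by -0.0034 and -0.045, and the median of 11 glyoxylate-route genes by -0.036 and 0.13. A list median evens out the shifts of single genes, so it is not a like measure. Single genes of such lists could vary more, as ICL1 did at high SAM (222 ± 86.6 FPKM). Across the 6 bikaverin libraries, deviations from the group mean correlated at r = 0.99 for YAT1 with YAT2, 0.97 for YAT1 with CRC1 and 0.95 for YAT2 with CRC1, the lowest pair of members being CAT2 with YAT2 at 0.65. In the 6 pRS416 libraries the same correlations ran from -0.47 to 0.90. These are descriptions of 6 libraries that share groups and depth, and the median absolute deviation over all tested features was 0.0642 to 0.124 in the bikaverin libraries and 0.0391 to 0.0840 in the pRS416 libraries. The 2 highest of the 12 values, 0.101 and 0.124, were those of low-SAM replicate 3 and high-SAM replicate 1 of the bikaverin strains, and their part in the shuttle genes' shifts was not tested.

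Leaving out both of these libraries, a choice made after their values were seen and one that moves the groups apart by its construction, gave a log2 fold change of -1.39 for CRC1 (adjusted p = 1.6e-05). The same fit gave -2.26 for YAT1 and -2.38 for YAT2.

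**Figure D2:**
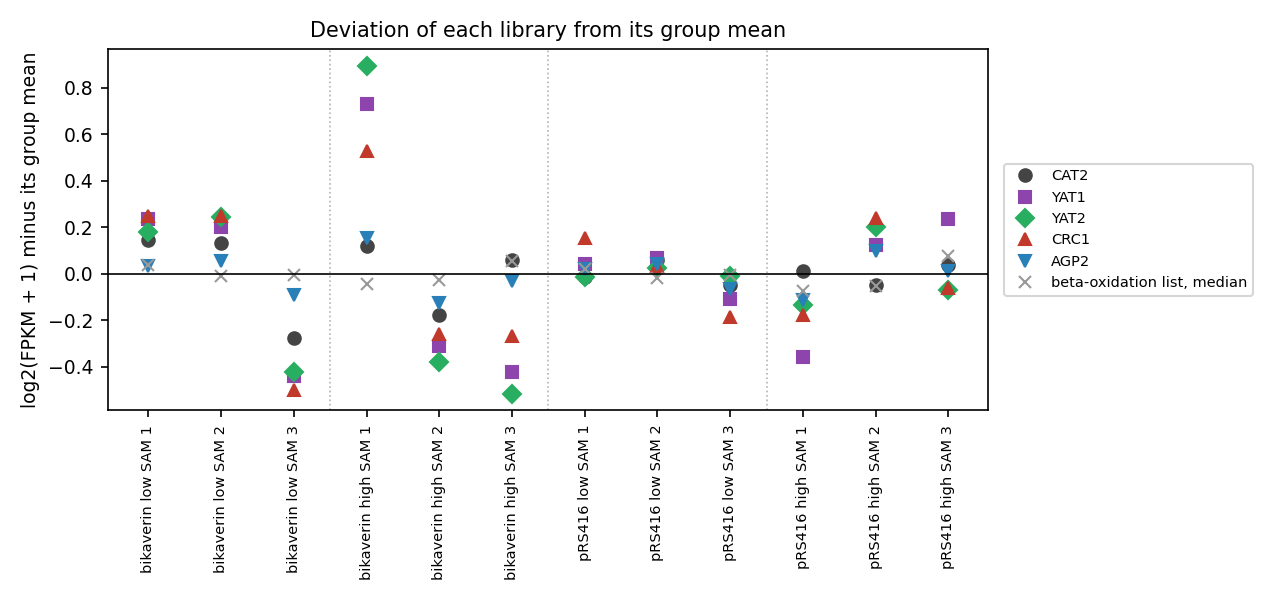
Deviation of each library from its group mean, in log2(FPKM + 1), for the 5 shuttle genes and for the median of the beta-oxidation list. High-SAM replicate 1 of the bikaverin strains has the largest shifts of YAT1, YAT2 and CRC1 (0.73, 0.90 and 0.53) among the 12 libraries.

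In the pRS416 strains 4 of the 5 genes were called lower at high SAM and 0 higher. Of the 6342 features tested, 38.4% were called lower and 39.1% higher, 77.5% in either direction. The median log2 fold change of the 5 was -0.83 beside -0.01 over all tested features. CAT2 was at 381.4, 400.5 and 372.6 FPKM at low SAM and at 217.6, 208.9 and 221.8 FPKM at high SAM. The replicates were close and the groups did not overlap, with means of 384.8 ± 14.2 and 216.1 ± 6.57 FPKM (log2 fold change -0.83, SE 0.0643, adjusted p = 2.4e-06). YAT2 was at 435.8, 447.7 and 437.0 FPKM at low SAM and at 125.4, 158.7 and 131.4 FPKM at high SAM. It had the largest change of the 5 in this pair, from 440.2 ± 6.58 to 138.5 ± 17.8 FPKM (-1.67 on the log2 scale, SE 0.0907, adjusted p = 2.3e-07), without overlap.

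CRC1 was at 202.4, 186.2 and 159.7 FPKM at low SAM and at 73.1, 98.1 and 79.3 FPKM at high SAM. AGP2 was at 47.3, 47.9 and 44.4 FPKM at low SAM and at 26.2, 30.6 and 28.7 FPKM at high SAM. Neither gene's groups overlapped. CRC1 fell from 182.8 ± 21.5 to 83.5 ± 13 FPKM (-1.13 on the log2 scale, SE 0.121, adjusted p = 2.3e-05), and AGP2 fell from 46.5 ± 1.86 to 28.5 ± 2.18 FPKM (-0.69, SE 0.0733, adjusted p = 2.1e-05). YAT1 was the exception, at 221.5, 225.4 and 199.4 FPKM at low SAM and at 132.6, 185.7 and 201.0 FPKM at high SAM. The highest high-SAM library exceeded the lowest low-SAM library, and the log2 fold change of -0.33 (SE 0.140, 95% interval -0.65 to -0.016) did not pass the threshold (adjusted p = 0.0534). This value lay close to the threshold: it ran from -0.15 without high-SAM replicate 1 (adjusted p = 0.119) to -0.45 without high-SAM replicate 3 (adjusted p = 0.0152) when 1 library was left out. It passed with quantile normalisation (-0.48, adjusted p = 0.00637), with median scaling (-0.34, adjusted p = 0.048) and without high-SAM replicate 2 (-0.40, adjusted p = 0.044).

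The difference between the SAM contrasts of the 2 pairs was fitted over all 12 libraries, as the bikaverin contrast minus the pRS416 contrast. For YAT1 it was -1.34 on the log2 scale (SE 0.384, 95% interval -2.18 to -0.51, adjusted p = 0.00982), the fall being larger with the bikaverin module. For CAT2 it was -0.43 (SE 0.158, interval -0.77 to -0.087, adjusted p = 0.0342), also the larger fall with the module. The CAT2 call was lost in 7 of 12 fits that left out 1 library (adjusted p from 0.0597 to 0.0881) and the YAT1 call in none. The fit used 1 variance per gene for both pairs, though the SE of YAT1 was 0.318 with the module and 0.140 with pRS416. Its intervals and adjusted p-values may therefore overstate the evidence. For YAT2 the difference was -0.05 (interval -0.95 to 0.85, adjusted p = 0.932), for CRC1 0.24 (-0.47 to 0.95, adjusted p = 0.548) and for AGP2 0.27 (0.0019 to 0.53, adjusted p = 0.0786). These 3 genes did not pass, and the intervals for YAT2 and CRC1 leave room for differences of nearly 1 log2 unit in some direction. Without both shifted bikaverin libraries the YAT2 difference was -0.71 (adjusted p = 0.000846). That choice was made after their values were seen and widens the bikaverin contrast by its construction, so no conclusion is drawn from it. The CRC1 difference was -0.0056 without low-SAM replicate 3 and -0.0205 without high-SAM replicate 1 of the bikaverin strains, and the YAT2 difference turned positive, at 0.0416 to 0.21, when any of 5 other libraries was left out. The AGP2 difference passed without bikaverin high-SAM replicate 2 (0.33, adjusted p = 0.0422). The 2 shuttle genes called lower stood beside 29.3% of the 6268 features tested for the difference, with 27.9% called higher and 57.2% in either direction.

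**Figure D3:**
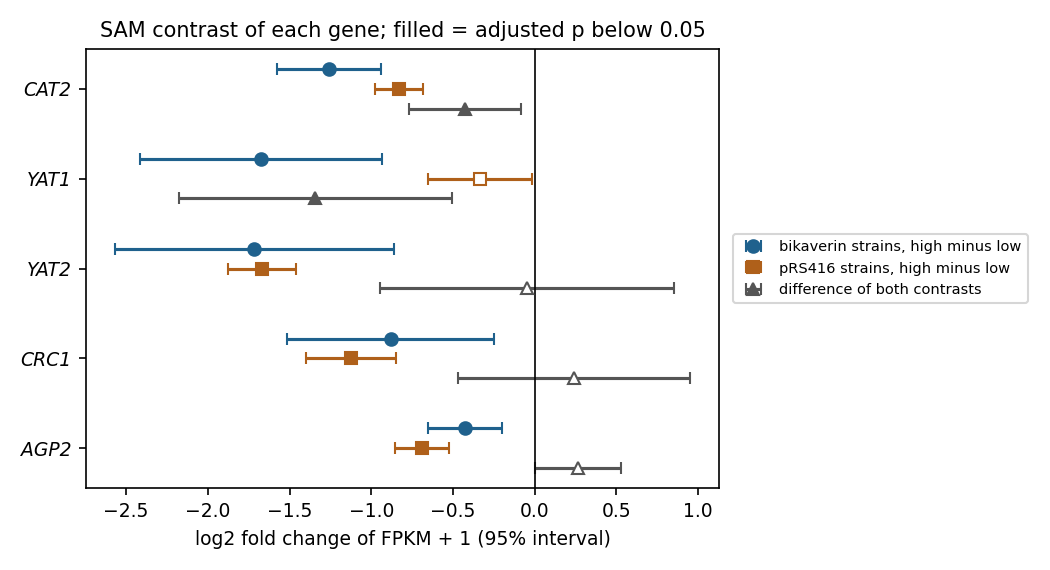
Log2 fold change of high against low SAM for each shuttle gene in the bikaverin strains and in the pRS416 strains, and the difference between them, with 95% intervals from limma and filled symbols for adjusted p under 0.05. YAT1 has the widest gap between the pairs, -1.68 against -0.33.

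By mean FPKM, which is per length, the order of the genes was the same at both SAM levels in the bikaverin strains and differed in the pRS416 strains. At low SAM in the bikaverin strains YAT2, YAT1 and CAT2 came first, with ranges overlapping between neighbours, then CRC1 and then AGP2, each separate from the one above. At high SAM in those strains the ranges of YAT2, YAT1, CAT2 and CRC1 each overlapped the next, and AGP2 lay apart below them. This order of means rested on high-SAM replicate 1, with YAT2 at 204.5, YAT1 at 173.0 and CAT2 at 109.3 FPKM. In high-SAM replicates 2 and 3 CAT2 was the highest, at 89.0 and 104.8 FPKM. There YAT1 was at 83.5 and 77.2 FPKM and YAT2 at 83.9 and 76.3 FPKM. The unchanged order with the module therefore depended on that single library. In the pRS416 strains at low SAM YAT2 lay above CAT2, which lay above YAT1, while YAT1 and CRC1 overlapped and AGP2 was lowest. At high SAM with pRS416 CAT2 was highest, YAT1 and YAT2 overlapped, and CRC1 and AGP2 followed separately.

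The 3 acetyltransferase genes were also taken as a sum. The sum was 1071, 1079 and 715 FPKM at low SAM and 487, 256 and 258 FPKM at high SAM with the bikaverin module, and 1039, 1074 and 1009 FPKM against 476, 553 and 554 FPKM with pRS416. Both pairs were without overlap, with means of 955 ± 208 against 334 ± 133 FPKM and 1040.4 ± 32.3 against 528 ± 45.1 FPKM. With pRS416 the make-up of the sum differed as well. YAT2 made up 42.3 ± 0.863% of it at low SAM and 26.3 ± 2.49% at high SAM, and YAT1 made up 20.7 ± 0.824% and 32.6 ± 4.28% (SD, n = 3). CAT2 made up 37.0 ± 0.294% and 41.2 ± 4.13%. The ratio of YAT2 to YAT1 was 1.97, 1.99 and 2.19 at low SAM and 0.946, 0.855 and 0.654 at high SAM, so the gene with more RNA changed from YAT2 to YAT1 in all 3 libraries. In the bikaverin strains the same ratio was 1.04, 1.12 and 1.10 against 1.18, 1.0 and 0.99, and the ratio and all 3 shares overlapped between the groups. These overlaps came from high-SAM replicate 1. In high-SAM replicates 2 and 3 CAT2 made up 34.7% and 40.6%, against 24.6% to 27.9% at low SAM. YAT1 made up 32.6% and 29.9% against 34.4% to 36.7%, and YAT2 32.7% and 29.5% against 37.7% to 39.8%. With 3 libraries against 3 the two-sided exact permutation test cannot go below p = 0.1, which the pRS416 ratio and shares reached (0.2 after Benjamini-Hochberg adjustment over 12 such tests).

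**Figure D4:**
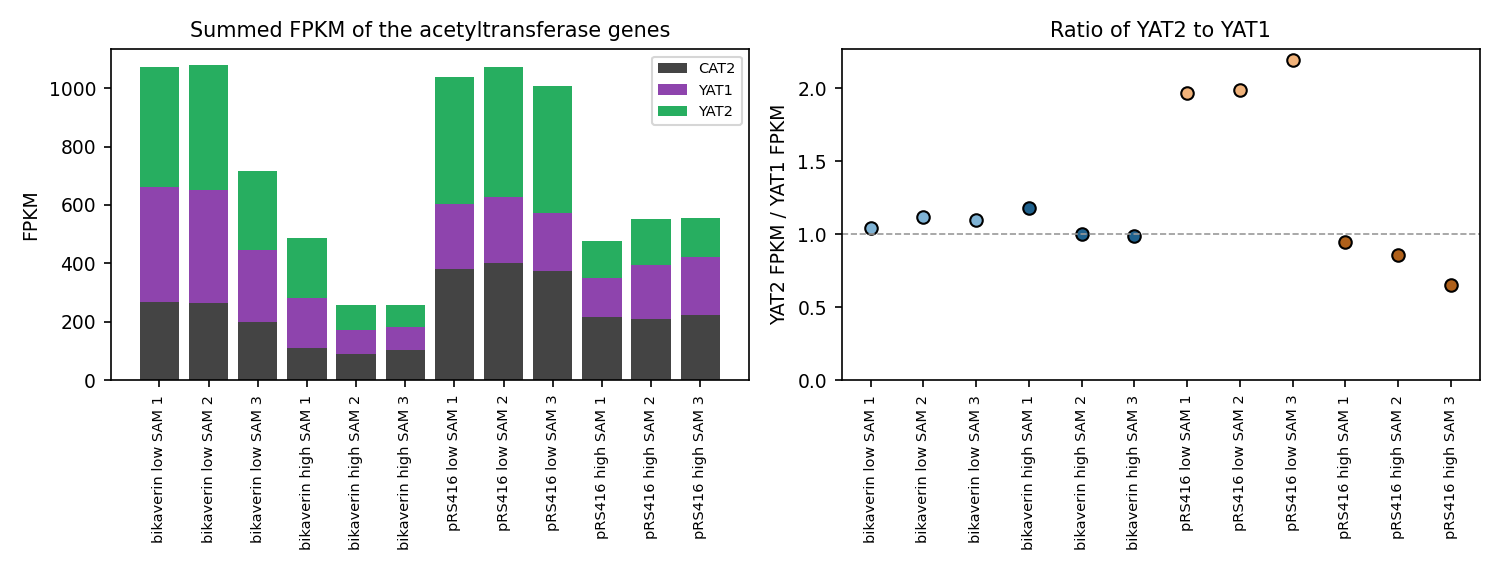
Left, FPKM of CAT2, YAT1 and YAT2 stacked from 0 for each library. Right, the ratio of YAT2 to YAT1 FPKM in each library, with a dashed line at equal levels: with pRS416 it lies between 1.97 and 2.19 at low SAM and between 0.654 and 0.946 at high SAM.

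The pathways that make acetyl-CoA moved with the shuttle in part. Of 16 peroxisomal beta-oxidation genes, 15 were called lower and 1 higher at high SAM in the bikaverin strains (median log2 fold change -1.97), and 14 lower and 1 higher in the pRS416 strains (-1.39). The gene called higher was NPY1, a peroxisomal NADH pyrophosphatase, in both pairs. It and other genes named below only to complete a small count were named after their values were seen. POX1, the acyl-CoA oxidase that starts the cycle, fell from 611 ± 5.46 to 61.5 ± 1.22 FPKM with the module and from 451 ± 11.0 to 57.3 ± 4.21 FPKM with pRS416. Over all features 27.9% were called lower and 28.8% higher with the module, and 38.4% and 39.1% with pRS416. Of 17 genes of acetyl-CoA formation, 10 were lower and 2 higher with the module (median -0.37; 0 or 1 higher with any 1 library left out). With pRS416 10 were lower and 6 higher (-0.41), the higher count lying near the share of all features. The 2 higher with the module were ACS2 and PDC5, a pyruvate decarboxylase. ACS1, the acetyl-CoA synthetase used on non-fermentable carbon, fell from 752 ± 168 to 78.6 ± 16.4 FPKM and from 1393 ± 71.9 to 279 ± 50.9 FPKM. ALD4, the main mitochondrial acetaldehyde dehydrogenase, fell from 4975 ± 514 to 721 ± 119 FPKM and from 3355 ± 60.7 to 195 ± 19.7 FPKM. ACS2, the synthetase used during growth on glucose, was higher at high SAM in both pairs, at 159 ± 45.3 and 279 ± 74.8 FPKM with the module and rising from 70.1 ± 1.88 to 603 ± 37.8 FPKM with pRS416. The ACS2 call with the module (log2 fold change 0.82, adjusted p = 0.027) was lost without low-SAM replicate 3 (0.56, adjusted p = 0.0673), without high-SAM replicate 1 (0.61, adjusted p = 0.0642) or without high-SAM replicate 2 (0.86, adjusted p = 0.058).

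Most genes of the mitochondrial cycle that takes up the acetyl groups moved in opposite directions in the 2 pairs. Of 11 genes of the tricarboxylic acid cycle, from citrate synthase onward, 9 were lower and 0 higher at high SAM with the module (median -0.69), whereas 10 were higher and 1, the minor citrate synthase CIT3, was lower with pRS416 (1.80). The difference between the contrasts was called for 10 of these 11 genes, all lower with the module (median -2.94). Over all features 57.2% were called for the difference, 29.3% of them lower and 27.9% higher as shares of those tested. CIT1, the mitochondrial citrate synthase, which was singled out after its values were seen, fell from 2117 ± 345 to 1074 ± 46.9 FPKM with the module and rose from 810.0 ± 11.6 to 3715 ± 412 FPKM with pRS416. ACO1, the aconitase of the cycle, fell from 1719 ± 3.06 to 487 ± 24.2 FPKM and rose from 681 ± 9.09 to 2382 ± 156 FPKM. IDH2 and IDH1 of the same list were not called with the module (adjusted p = 0.577 and 0.936). With pRS416 they rose from 68.0 ± 2.97 to 1339 ± 132 FPKM and from 117 ± 2.75 to 2297 ± 291 FPKM. In the pRS416 strains CAT2, YAT2 and CRC1 were thus lower in the group where these genes were higher.

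Most genes listed for the route that leads around the shuttle moved as the cycle genes did. Its peroxisomal citrate synthase and malate dehydrogenase genes did not do so with pRS416. Of 11 genes of peroxisomal citrate synthesis, the glyoxylate cycle and gluconeogenesis, 7 were lower and 0 higher with the module (median -0.60). With pRS416 9 were higher and 2, CIT2 and the peroxisomal malate dehydrogenase MDH3, lower (1.13). The difference was called for 10 of 11, all lower with the module, beside 29.3% of all features called lower. MLS1, a malate synthase, fell from 1864 ± 113 to 378 ± 43.7 FPKM and rose from 1332 ± 42.4 to 2626 ± 260.1 FPKM. The gluconeogenesis genes PCK1 and FBP1 were not called with the module (adjusted p = 0.978 and 0.201). With pRS416 they rose from 162 ± 12.9 to 2489 ± 195 FPKM and from 66.5 ± 8.26 to 845 ± 61.0 FPKM. ICL1, isocitrate lyase, was at 253 ± 23.5 and 222 ± 86.6 FPKM with the module (adjusted p = 0.391), where leaving out high-SAM replicate 1 gave a log2 fold change of -0.55 (adjusted p = 0.00288), and rose from 534 ± 49.4 to 3101 ± 357 FPKM with pRS416. CIT2, the peroxisomal citrate synthase itself, also singled out after its values were seen, was at 1932 ± 475 and 2172 ± 539 FPKM with the module (log2 fold change 0.17, adjusted p = 0.545; -0.04 without low-SAM replicate 3 and -0.02 without high-SAM replicate 1) and fell from 1180.5 ± 52.8 to 961 ± 31.4 FPKM with pRS416 (-0.30, adjusted p = 0.00604).

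**Figure D5:**
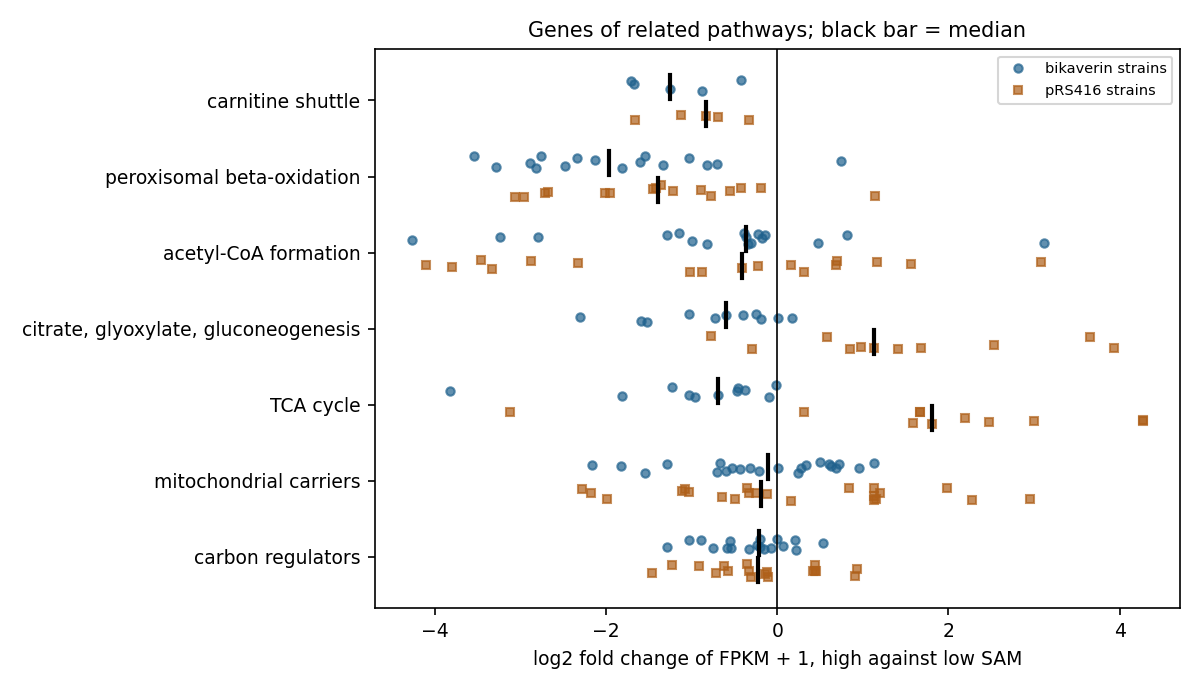
Log2 fold change of high against low SAM for each gene of the shuttle and of related lists in the bikaverin and pRS416 strains, with list medians as black bars. Beta-oxidation genes lie mostly below 0 in both pairs, whereas the tricarboxylic acid cycle genes have medians of -0.69 and 1.80.

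Among 23 mitochondrial carrier genes that include relatives of CRC1, 22 were tested (AAC3 was not), with 9 lower and 6 higher with the module (median -0.11) and 11 lower and 9 higher with pRS416 (-0.19). The higher calls lay close to the shares over all features, 28.8% and 39.1%. DIC1, the dicarboxylate carrier, fell from 226 ± 27.8 to 49.9 ± 8.01 FPKM and from 74.3 ± 4.12 to 18.0 ± 2.26 FPKM. PET9, the main ADP/ATP carrier, rose from 444 ± 12.3 to 2165 ± 249 FPKM with pRS416 and fell from 1235 ± 11.3 to 993 ± 103 FPKM with the module (-0.32 on the log2 scale, adjusted p = 0.0274). The latter call was lost with quantile normalisation (-0.23, adjusted p = 0.0581) and without any 1 library other than high-SAM replicate 1 (adjusted p from 0.0582 to 0.114).

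Of 18 regulators of non-fermentable carbon use, 6 were lower and 3 higher with the module (median -0.22; 1 higher with any of 5 libraries left out) and 9 lower and 6 higher with pRS416 (-0.23). The shares called with pRS416 and the share lower with the module lay near those of all features (38.4% lower and 39.1% higher, and 27.9% lower). The 3 higher with the module were SNF4, MIG1 and OAF3. ADR1, an activator of peroxisomal and ethanol-use genes, fell from 199.0 ± 12 to 81.0 ± 6.55 FPKM with the module (log2 fold change -1.29) and rose from 119 ± 9.75 to 159 ± 1.51 FPKM with pRS416 (0.41). CAT8, whose product binds the carbon source response element printed above, fell from 47.1 ± 2.35 to 25 ± 3.07 FPKM (-0.89) and rose from 41.1 ± 2.55 to 78.1 ± 8.59 FPKM (0.91). The RNA of these 2 activators and that of CAT2, YAT2, CRC1 and AGP2 therefore moved the same way with the module and in opposite ways with pRS416. RDS2, a regulator of gluconeogenic genes, fell in both, from 64.5 ± 8.38 to 30.8 ± 1.93 FPKM and from 101.7 ± 0.916 to 42.6 ± 0.757 FPKM. MIG1, a glucose repressor, fell from 154 ± 8.0 to 55.4 ± 9.07 FPKM with pRS416 and rose from 145 ± 5.33 to 169 ± 1.89 FPKM with the module (adjusted p = 0.0325), a call lost without any 1 library other than high-SAM replicate 1 (adjusted p from 0.0527 to 0.117). The oleate activator genes went opposite ways with pRS416. PIP2 fell from 62.8 ± 3.24 to 37.8 ± 0.451 FPKM, and OAF1, named after its values were seen, rose from 44.5 ± 0.786 to 61.4 ± 1.38 FPKM (0.46 on the log2 scale, adjusted p = 6.2e-05). With the module PIP2 was at 61.4 ± 3.99 and 53.1 ± 3.46 FPKM (adjusted p = 0.0772; 0.0464 with quantile normalisation and 0.0386 without high-SAM replicate 1) and OAF1 at 47.4 ± 2.92 and 41.2 ± 4.87 FPKM (adjusted p = 0.141).

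AGP2 was set beside its relatives and beside other uptake genes. Of 17 amino acid permease relatives, 4 were lower and 6 higher with the module (median 0.23; 8 lower without both shifted libraries), and 11 lower and 3 higher with pRS416 (-0.92). Over all features 27.9% were called lower and 28.8% higher with the module, and 38.4% and 39.1% with pRS416. The permease counts with the module lay near those shares. The 4 lower with the module were PUT4, GAP1, SSY1 and BAP2, and the 3 higher with pRS416 were BAP3, HIP1 and ALP1. PUT4, the proline permease, fell from 348 ± 56.5 to 36.5 ± 11.0 FPKM and from 295 ± 33.8 to 4.21 ± 0.783 FPKM. BAP3, a branched-chain amino acid permease, rose from 79.4 ± 28.0 to 458 ± 18.8 FPKM and from 13 ± 0.459 to 381 ± 33.6 FPKM. Of 9 genes for the transport of choline, polyamines, inositol and related compounds or for its control, 4 were higher and 0 lower with the module (median 0.24). With pRS416 4 were higher and 3 lower (0.21), near the shares of all features. The higher genes were SAM3, DUR3, ITR2 and SKY1 with the module and ITR1, ITR2, HNM1 and SKY1 with pRS416, where GIT1, TPO5 and PTK2 were lower. SAM3, the high-affinity SAM permease, rose from 137 ± 14.9 to 364 ± 25.3 FPKM with the module and was at 94.5 ± 6.49 and 109.8 ± 11.8 FPKM with pRS416 (adjusted p = 0.0575; 0.0492 without low-SAM replicate 1 and 0.00562 without high-SAM replicate 2).

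Over the 12 libraries, each centred on its table, the members correlated with each other at r from 0.69 (YAT1 with AGP2) to 0.97 (YAT2 with CRC1). Among 5385 other genes with a mean of at least 10 FPKM in both tables, those most like CAT2 were GDH2, the NAD-dependent glutamate dehydrogenase, ACS1 and the spore wall gene DIT1, each at r = 0.99. Most like YAT1 were CWH41 (0.97), a glucosidase of protein glycosylation, GON7 (0.97) and BNA7 (0.95). Most like YAT2 were the diphthamide gene DPH5 (0.99), the glutaredoxin gene GRX4 (0.98) and EFM5 (0.98). Most like CRC1 were ARO10 (0.97), a decarboxylase of amino acid breakdown, RTT106 (0.97) and GRX4 (0.96). Most like AGP2 were YIL089W (0.99), CAB2 (0.99), an enzyme of CoA synthesis, and GCN5 (0.98), a histone acetyltransferase. These likenesses describe 12 libraries in 4 groups, so any gene with the same order of group means ranks high.

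The genes next to the members on the chromosome were listed for context. Beside YAT1, the membrane protein gene MST28 (1382 bp away) fell from 26.3 ± 5.05 to 8.5 ± 0.296 FPKM with the module and from 23.8 ± 0.777 to 11.9 ± 1.25 FPKM with pRS416. YAR035C-A, 81 bp from YAT1, was at 8.87 ± 5.07 FPKM at low SAM with the module and listed at 0 in the 3 high-SAM libraries, and at 5.04 ± 0.688 against 0.290 ± 0.284 FPKM with pRS416. Of all tested features on chromosome I the median log2 fold change was -0.17 with the module and 0.00 with pRS416, beside 0.01 and -0.01 over all features. Beside CRC1, OST2 (2171 bp away), a subunit of oligosaccharyltransferase, was at 6.06 ± 1.76 and 7.04 ± 0.513 FPKM at low SAM and listed at 0 in all 6 high-SAM libraries. Overlaps of the neighbours with other genes were not looked at, so a listed 0 need not mean absent RNA. RAS1 (966 bp from CRC1) fell from 60.2 ± 1.93 to 33.3 ± 9.15 FPKM and from 81.7 ± 6.68 to 7.02 ± 0.901 FPKM. Beside YAT2, the translation factor gene GCD11 (288 bp away) rose in both pairs, from 128 ± 8.45 to 209 ± 28.0 FPKM and from 108 ± 3.51 to 173 ± 8.80 FPKM. Beside CAT2, RRN11 (1021 bp away), a factor of ribosomal RNA transcription, rose from 14.5 ± 2.39 to 28.9 ± 8.62 FPKM with the module and fell from 16.1 ± 0.850 to 11.1 ± 2.61 FPKM with pRS416. The gene next to AGP2, CCZ1 (375 bp away), fell from 13.4 ± 0.814 to 7.81 ± 0.271 FPKM with pRS416.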

How the data were processed

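FPKM were made by the authors in 1 table for each pair of strains, and per the submitters' processing notes reads were handled with featureCounts 1.5.0-p3, HISAT2 2.0.5 and fastp on build R64. No strand setting, annotation or filter is stated there. Per the labels' protocols, frozen samples were ground, and RNA was taken with a plant RNA kit. The tables list 6845 and 6818 features, of which 5944 and 5934 matched the R64 reference, which gave lengths, coordinates and promoters. Columns were joined to samples by library name and title, because another label field gives other strain numbers. Low FPKM values times length came in whole reads (97.3% to 98.8% within 0.02 for values under 1000 reads), which gave the depth. 3 reads on a gene of 1 kb are worth 0.0665 to 0.195 FPKM.

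With limma 3.58.1 (R 4.3.3), each pair was fitted separately on log2(FPKM + 1), over features averaging at least 1 FPKM in that table, and adjusted by Benjamini-Hochberg over all of them. A feature was called at an adjusted p under 0.05. Fold changes are on the log2(FPKM + 1) scale, which understates low genes. The difference between pairs was 1 fit of the 12 libraries. The limma script was run on simulated data with independent libraries and far fewer changed genes than were called here, so that run does not give the error rates of these data. Near copies were sought with BLAST+ 2.17.0. The genes named are the 5 members, up to 4 genes of smallest p from each list and pair, the 3 genes of most similar pattern per member and the 2 nearest neighbours on each side, and the text gives a selection of these. The members and lists were chosen with earlier results of these data known. Features named for the introduced module were at no more than 1.26 FPKM in the pRS416 libraries. All of these features had their highest value in high-SAM replicate 1 (PPT 1.26 and NPGA 1.24 FPKM) and were listed at 0 in high-SAM replicate 2. They were not analysed here in the bikaverin strains, so the module label of YJ-04 and YJ-06 was not checked.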

Additional observations from a re-analysis of the deposited data

Results flagged for a closer look

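For 2 of the 5 shuttle genes the SAM contrast differed between the strain pairs by a test of the difference itself, a term in the limma fit of all 12 libraries, where 57.2% of the 6268 features tested were called. For YAT1 the bikaverin contrast minus the pRS416 contrast was -1.34 on the log2 scale (adjusted p = 0.00982), from -1.68 and -0.33. For CAT2 it was -0.43 (adjusted p = 0.0342), from -1.26 and -0.83, a call that 7 of the 12 leave-one-out fits did not give, and that was lost with the replicate block (adjusted p = 0.0544) and with quantile normalisation (-0.26, adjusted p = 0.196). The tables were normalised separately and sequenced to different depths, and HMRA1 was high only in the pRS416 high-SAM strain. The part of any of these in the differences between pairs was not tested.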

How the results depend on the processing

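In the bikaverin strains all 5 shuttle genes kept their direction in the 14 alternative settings, and the calls of CAT2, YAT1, YAT2 and AGP2 held in each. CRC1 ranged from -1.15 to -0.75 over the 6 fits that left out 1 library. In the pRS416 strains CAT2, YAT2, CRC1 and AGP2 were called lower in all 13 settings. YAT1, not called, ranged from -0.45 to -0.15 over the leave-outs and passed with quantile normalisation (-0.48) and median scaling (-0.34).

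For the difference between pairs, the YAT1 call held in all 20 settings (-1.93 to -1.13). CAT2 ranged from -0.57 to -0.34 over the leave-outs, and quantile normalisation gave -0.26 (adjusted p = 0.196). YAT2 ranged from -0.50 to 0.21 over the leave-outs and was 0.12 with quantile normalisation. CRC1 ranged from -0.0205 to 0.38 and AGP2 from 0.19 to 0.33 over the leave-outs. Members called lower numbered 1 with quantile normalisation and 1 to 2 over the leave-outs, and members called higher 0 to 1. Without both shifted bikaverin libraries, a setting chosen after seeing the data, YAT2 was -0.71, CRC1 -0.27 and, in the bikaverin pair, CIT2 -0.23 (CIT2 -0.0362 and -0.0208 without either). The cause was not tested.

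No label says whether same-numbered libraries were paired. Over all tested features their deviations correlated at 0.0345, -0.0792 and 0.120 (bikaverin) and at -0.126, -0.0318 and -0.136 (pRS416). With the replicate block, 3506, 4815 and 3395 features were called (3662, 4918 and 3586 without it). YAT1 was called with pRS416 (-0.33, adjusted p = 0.0417), and the CAT2 difference was not (-0.43, adjusted p = 0.0544), which left 1 member called lower for the difference. In the bikaverin strains the block lowered the SE of YAT1 from 0.318 to 0.186, of YAT2 from 0.367 to 0.237 and of CRC1 from 0.271 to 0.167 (CRC1 adjusted p = 0.00545). The SEs of CAT2 and AGP2 were 0.136 and 0.0991 with it, close to those without it. Depth set no floor here, since each member had at least 841 reads.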
